A study of Mus musculus with 2 samples.

Results

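T cell cluster 3 of the mouse esophagus comprised the 437 cells, of 4853 in all, that the authors' deposited annotation gave cluster number 3 and the cell type T cell. Membership was taken from that annotation alone. The cells came from esophagi freed of muscle and dispersed with trypsin, and their polyadenylated RNA was read from the 3′ end in droplets, with each captured molecule carrying a unique molecular identifier (UMI). The Keap1 cKO library (genotype K5CreERT2::Keap1 floxB/floxB) held 2381 cells. The control library (Keap1 floxB/floxB, with no Cre) held 2472 cells. Mice of both genotypes carried the floxB allele on both copies of Keap1 and were hybrids of the C57BL/6J and BALB/c strains. K5CreERT2 is a tamoxifen-inducible Cre recombinase driven by the keratin 5 promoter, which is active in basal keratinocytes and is not a T cell promoter. The sources used here do not give how many mice each library came from, their age or sex, the tamoxifen schedule or the deleted exons. With 1 library per genotype, genotype and library cannot be told apart and nothing was tested. Each interval is an exact 95% interval for counting error only.

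Gamma-delta T cells carry a T cell receptor made of a gamma and a delta chain, in place of the alpha and beta chains of most T cells. In mice, a fetal-derived type 17 subset settles in mucosal and other barrier tissues, depends on transcription factors such as MAF, senses interleukin 1 and interleukin 23, and releases interleukin 17A and 17F quickly. These cytokines act on epithelial cells, which answer with antimicrobial proteins and chemokines. Many type 17 gamma-delta cells in mucosa pair the variable segments Vγ6 (Tcrg-V6) and Vδ4 (Trdv4).

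Cluster 3 held 378 cells of the Keap1 cKO library, which was 15.9% of that library (14.4% to 17.4%), and 59 cells of the control library, 2.39% of it (1.82% to 3.07%). The share was 6.65 times as high in the Keap1 cKO library. The neighbouring T cell cluster 11 held 163 Keap1 cKO cells (6.85%) and 58 control cells (2.35%). The Keap1 cKO library supplied 86.5% of the cells and 91.0% of the UMIs of cluster 3, so the cluster was mostly cells of 1 library. Summed over cluster 3, the Keap1 cKO cells gave 3218498 UMIs and the control cells 320202. The median cell had 8224.5 UMIs and 2881 genes in the Keap1 cKO library and 5299 UMIs and 2171 genes in the control library. Mitochondrial UMIs made up 2.56% of the median Keap1 cKO cell and 2.86% of the median control cell. 5 cell barcodes occurred in both libraries, and 0 of those cells were in cluster 3.

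Il17a and Il17f, the paired cytokine genes that give the type 17 label its meaning, lie beside each other on mouse chromosome 1. Il17a spans chr1:20730905-20734496 on the plus strand and Il17f spans chr1:20777146-20790617 on the minus strand (mm10, GENCODE vM21). Their RefSeq promoters are shown with the letters AGGTCA, a core motif that many nuclear receptors bind. The windows run from 250 bases before to 50 bases after the annotated start, at chr1:20730655-20730954 for Il17a and chr1:20784221-20784520 for Il17f (GRCm38.p6), each written 5′ to 3′ on the gene's strand. Capitals mark AGGTCA or its reverse complement TGACCT.
Il17a: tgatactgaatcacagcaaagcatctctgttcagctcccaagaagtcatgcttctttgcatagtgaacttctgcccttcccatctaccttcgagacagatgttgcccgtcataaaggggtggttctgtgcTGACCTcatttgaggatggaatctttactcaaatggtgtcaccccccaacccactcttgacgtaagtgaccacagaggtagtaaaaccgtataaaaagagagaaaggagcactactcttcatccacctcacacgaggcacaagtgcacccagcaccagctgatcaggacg
Il17f: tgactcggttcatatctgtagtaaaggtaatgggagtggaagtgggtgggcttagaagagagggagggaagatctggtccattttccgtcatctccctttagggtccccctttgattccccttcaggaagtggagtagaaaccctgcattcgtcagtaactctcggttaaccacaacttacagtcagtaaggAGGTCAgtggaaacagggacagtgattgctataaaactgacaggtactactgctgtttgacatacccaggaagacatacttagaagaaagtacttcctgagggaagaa
The Il17a window held 1 match, 120 bases before the start, and the Il17f window held 1 match, 58 bases before the start. The Il23r window held 2 matches, and those of Cd163l1, Il1r1 and Sox13 held 0. Of all 32851 promoter windows in the table, 5340 (16.3%) held at least 1 match on either strand. These letters describe the sequence and were not tied to binding in these cells.

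The working label of cluster 3, gamma-delta type 17 T cells, was checked cell by cell against receptor transcripts. A cell was placed in the delta class with at least 2 UMIs of Trdc (the delta constant gene) and Trdv4 together and more of these than of Trac (the alpha constant gene). The alpha class had at least 2 Trac UMIs and more Trac than delta UMIs, and the remaining cells formed the other class. In the Keap1 cKO library 377 of 378 cluster 3 cells (99.7%, 98.5% to 99.99%) were in the delta class, against 16 of 59 in the control library (27.1%, 16.4% to 40.3%). The alpha class held 0 of 378 Keap1 cKO cells, which allows a share of up to 0.794% at 3 counts (exact upper limit 0.971%), and 35 of 59 control cells (59.3%, 45.7% to 71.9%). The other class held 1 Keap1 cKO cell and 8 control cells. The label thus held for nearly every Keap1 cKO cell of the cluster, and went against the receptor transcripts of most of its control cells. The cells are therefore called cluster 3 here, and comparisons between the libraries are given both for the whole cluster and for its delta class.

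Cells within 1 UMI of the limit between the classes numbered 6 of 378 in the Keap1 cKO library and 11 of 59 in the control library. The median cell had 19 delta UMIs (1 to 160) and 0 Trac UMIs (0 to 17) in the Keap1 cKO library, and 0 delta UMIs (0 to 28) and 3 Trac UMIs (0 to 15) in the control library. 1 cell of each library had exactly 1 delta UMI, and 5 Keap1 cKO cells and 2 control cells had exactly 2. Of the control cells, 3 of the other class had 1 Trac UMI, and 5 of the alpha class had exactly 2 and 8 exactly 3. With a limit of 1 UMI, 378 Keap1 cKO cells and 17 control cells had a delta transcript, while 0 Keap1 cKO cells and 38 control cells had Trac with no delta transcript. Trac lies downstream of Trdc on chromosome 14, where Trdc ends at 54148868 and Trac starts at 54220521. In the Keap1 cKO library 89 cells carried both a Trac and a delta UMI, 66 of them with a single Trac UMI. Why both were seen was not tested.

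**Figure D1:**
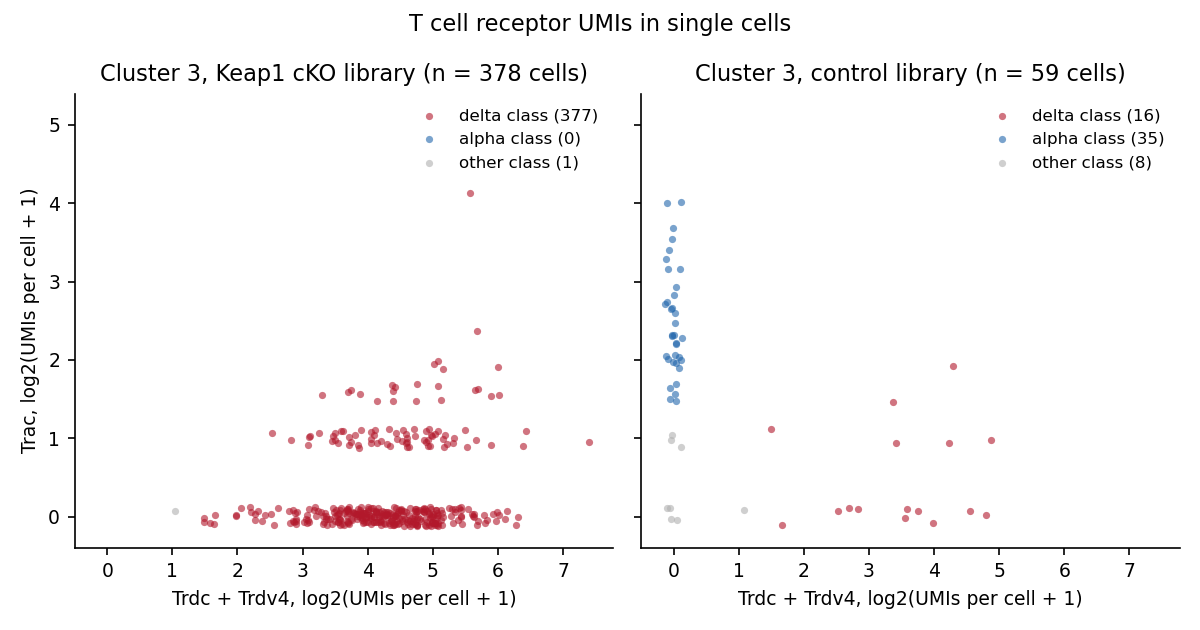
Each point is 1 cell of cluster 3, with the log2 of Trdc plus Trdv4 UMIs plus 1 on the x axis and the log2 of Trac UMIs plus 1 on the y axis; points are moved slightly at random so that they do not hide each other. The 377 delta-class cells of the Keap1 cKO library (left) run along the x axis, while 35 of the 59 control cells (right) stand on the y axis.

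Taken as a share of the whole library, delta-class cells of cluster 3 were 15.8% of Keap1 cKO cells (14.4% to 17.4%) and 0.647% of control cells (0.370% to 1.05%), a 24.5-fold difference. This was wider than the 6.65-fold difference for the cluster as annotated. Over clusters 3, 11 and 16 together (cluster 16 held dividing cells), 435 Keap1 cKO cells (18.3%, 16.7% to 19.9%) and 19 control cells (0.769%, 0.463% to 1.20%) were in the delta class, 23.8-fold apart. Alpha-class cells of the same clusters were 4.24% of the Keap1 cKO library (101 cells) and 2.91% of the control library (72 cells), 1.46-fold apart. In the Keap1 cKO library 97 of the 101 lay in cluster 11, whereas in the control library 33 of the 72 did. Cluster 3 and cluster 11 thus divided the receptor classes differently in the Keap1 cKO library than in the control library.

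**Figure D2:**
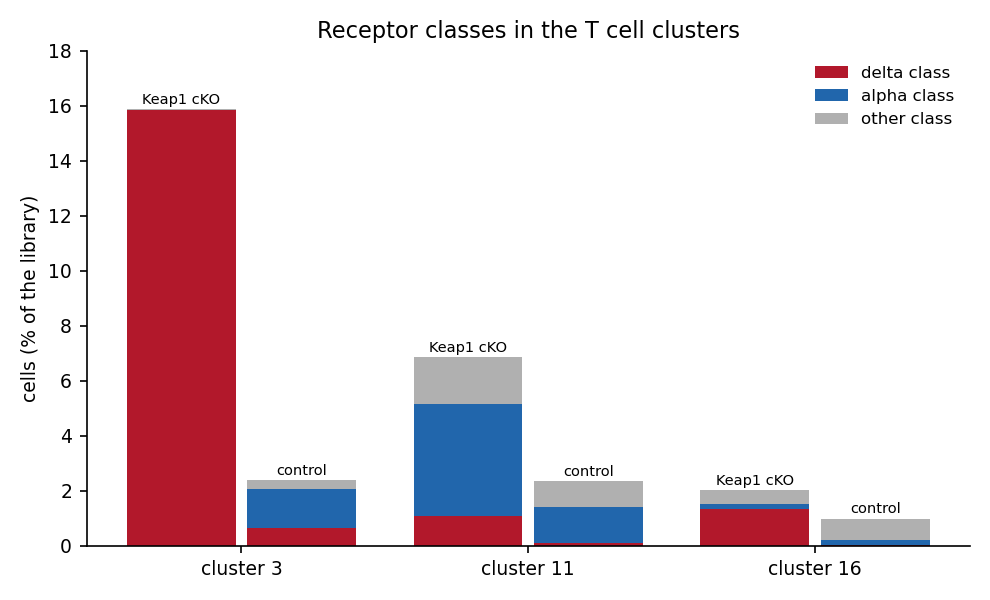
Bars give cells as a percentage of their library (y axis) in T cell clusters 3, 11 and 16, Keap1 cKO left of control, split into the delta, alpha and other receptor classes. The Keap1 cKO bar of cluster 3 is nearly all delta class at 15.8% of the library, and the control bar reaches 2.39% with the alpha class as its main part.

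Receptor segments were also counted, with Trdv4 itself part of the rule for the delta class. Trdv4, the Vδ4 segment (chr14:54074905-54075515, plus strand), had a UMI in 356 of 378 Keap1 cKO cells (94.2%) and 16 of 59 control cells (27.1%). Tcrg-V6, the Vγ6 segment (chr13:19190356-19190929, plus strand), had one in 254 Keap1 cKO cells (67.2%, 62.2% to 71.9%) and 5 control cells (8.47%, 2.81% to 18.7%). Of these, 247 Keap1 cKO cells and 5 control cells also carried Trdv4. Within the delta class alone Tcrg-V6 was seen in 67.4% of Keap1 cKO cells and in 5 of 16 control cells, 31.3% (11.02% to 58.7%). Trgv2 had more UMIs than Tcrg-V6, 912 in 216 Keap1 cKO cells and 29 in 15 control cells. Of those cells, 0 Keap1 cKO cells and 8 control cells lay outside the delta class. In the Keap1 cKO library Trgv2 was seen in 57.1% of cluster 3 and 17.8% of cluster 11 cells. In the control library it was seen in 25.4% of cluster 3 and 29.3% of cluster 11 cells. The remaining gamma segments were seen in fewer cells. Tcrg-V5 had a UMI in 51 Keap1 cKO cells and 2 control cells, Tcrg-V1 in 47 Keap1 cKO cells and 0 control cells, and Tcrg-V4, which marks another type 17 subset, in 38 Keap1 cKO cells and 2 control cells. 7 Keap1 cKO cells and 2 control cells had Tcrg-V4 without Tcrg-V6. With 540 Tcrg-V6 UMIs over all Keap1 cKO cells, many cells had a single molecule, so a cell without one is not shown to lack the segment.

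The 6 genes that mark the cluster were high in the summed cells, given as UMIs per 1000000 UMIs of the cells summed (CPM). As genes that set the clustering, they are described and not offered as results. Cd163l1, which encodes a scavenger receptor of type 17 gamma-delta cells in mice (chr7:140218267-140231145), had 1506 CPM in Keap1 cKO and 215 CPM in control cluster 3, with 129 CPM in Keap1 cKO and 20.1 CPM in control cluster 11. Trdc (chr14:54142851-54148868) had 1937 CPM in Keap1 cKO and 450 CPM in control cluster 3, with 154 CPM in Keap1 cKO and 34.5 CPM in control cluster 11. Il17a had 1416 CPM in Keap1 cKO and 781 CPM in control cluster 3, with 233 CPM in Keap1 cKO and 5.75 CPM in control cluster 11. The 2 libraries of cluster 3 stood above both libraries of cluster 11 for these 3 genes, and Il17a was the marker with the smallest gap between the libraries of cluster 3. Trdv4 had 723 CPM in Keap1 cKO and 181 CPM in control cluster 3. Tcrg-C1, a gamma constant gene (chr13:19214103-19217024), had 999 CPM in Keap1 cKO and 290 CPM in control cluster 3. Blk, a Src-family kinase known from B cells and type 17 gamma-delta cells (chr14:63372836-63417037), had 580 CPM in Keap1 cKO and 122 CPM in control cluster 3, and its control level lay below the 141 CPM of Keap1 cKO cluster 11. All 6 markers were higher in the Keap1 cKO part of cluster 3 by log2 ratios of 0.86 (Il17a) to 2.80 (Cd163l1).

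**Figure D3:**
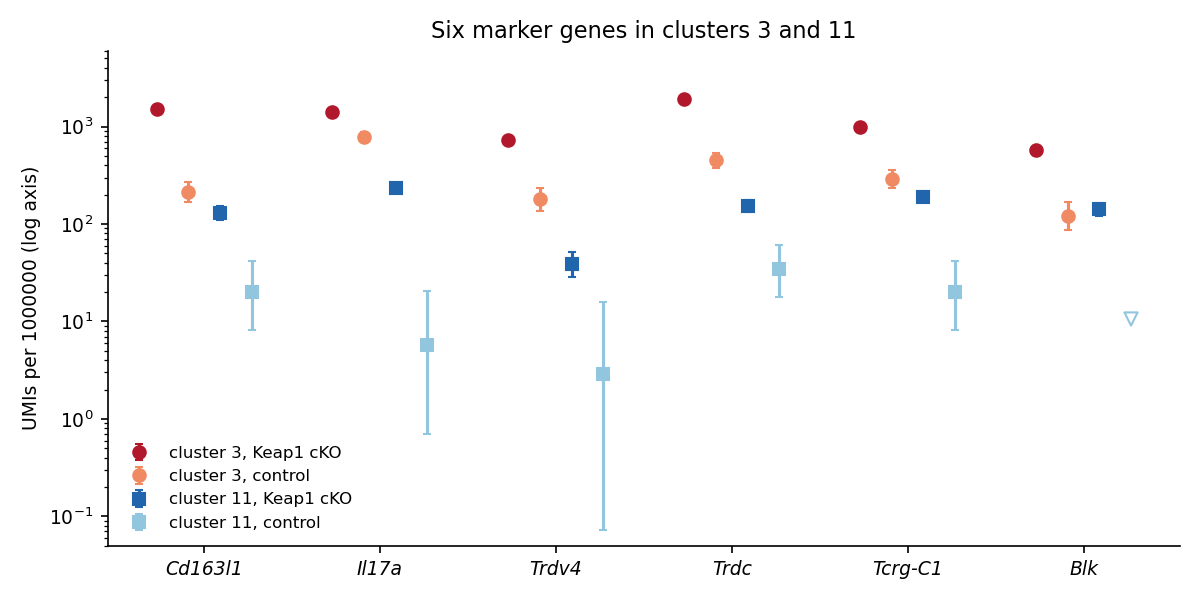
The y axis gives UMIs per 1000000 on a log axis for the 6 marker genes in cluster 3 (circles) and cluster 11 (squares), Keap1 cKO left of control in each pair, with exact 95% counting intervals; the open triangle is the upper limit for Blk, which had 0 UMIs in control cluster 11. Keap1 cKO cluster 3 is highest for each gene, from 580 CPM for Blk to 1937 CPM for Trdc.

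Shares of cells were compared after each cell had been thinned to 3000 UMIs, which left out 12 Keap1 cKO cells and 2 control cells. Cd163l1 was then seen in 97.8% of Keap1 cKO cells (95.7% to 99.1%) and 22.8% of control cells (12.7% to 35.8%). Il17a was seen in 82.2% of Keap1 cKO and 47.4% of control cells, and Blk in 79.2% of Keap1 cKO and 12.3% of control cells. Trac ran the other way, at 9.56% of Keap1 cKO and 64.9% of control cells. At full depth Cd163l1 was seen in 99.2% of Keap1 cKO and 23.7% of control cells, and Il17a in 91.8% of Keap1 cKO and 57.6% of control cells. Red blood cells, which should lack these transcripts, gave a measure of free RNA. Thinned alike, 2.50% of 120 Keap1 cKO red cells and 0 of 178 control red cells had a Cd163l1 UMI, 2.50% of Keap1 cKO and 0.562% of control red cells had an Il17a UMI, and 0 of either had a Blk or Trac UMI. The shares in cluster 3 were far above these in both libraries. The median red cell had 10271.5 UMIs in the Keap1 cKO library and 10831 UMIs in the control library.

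The 16 delta-class control cells were not uniform. 14 of them had a Trdc UMI, and Cd163l1 was present in all 14, Blk in 11, Trdv4 in 13, Il17a in 8 and Lck in 0. The 2 without Trdc had entered through Trdv4 (4 UMIs together), and carried no Cd163l1 but 8 Lck and 10 Fyb UMIs. Among the 376 Keap1 cKO delta-class cells with Trdc, Cd163l1 was present in 373, Blk in 359, Trdv4 in 355, Il17a in 346 and Lck in 8. Cd163l1 was thus in every control cell with Trdc, while Il17a and Blk were not.

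The 35 alpha-class control cells had another profile. They had 975 CPM of Trac and 171 CPM of Cd4, the helper T cell coreceptor, with 0 UMIs of Cd8a, Trdc, Trdv4, Cd163l1 or Blk. Lck, the kinase that starts signalling from the alpha-beta receptor, had 410 CPM, and the costimulatory receptor Cd28 had 353 CPM. These cells also expressed type 17 genes. Il17a had 721 CPM, Il17f 866 CPM, Maf 700 CPM and Ccr6, the receptor for the chemokine CCL20, 550 CPM. Within the control library, the delta class over the alpha class gave log2 ratios of 0.53 for Il17a (0.13 to 0.92), -1.46 for Il17f (-2.10 to -0.86), 3.98 for Il23r, the interleukin 23 receptor, -1.75 for Ccr6 and 2.62 for Pdcd1, the inhibitory receptor PD-1. The Il17a sums of both classes rest on few cells, with 73.0% of delta-class UMIs in 3 of 16 cells and 64.0% of alpha-class UMIs in 3 of 35 cells, and a median of 1 UMI per cell in each class. Maf and the residency receptor Cxcr6 lay close between the classes, at -0.02 and 0.32. The control cells of cluster 3 thus shared interleukin 17 transcripts across receptor classes.

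**Figure D4:**
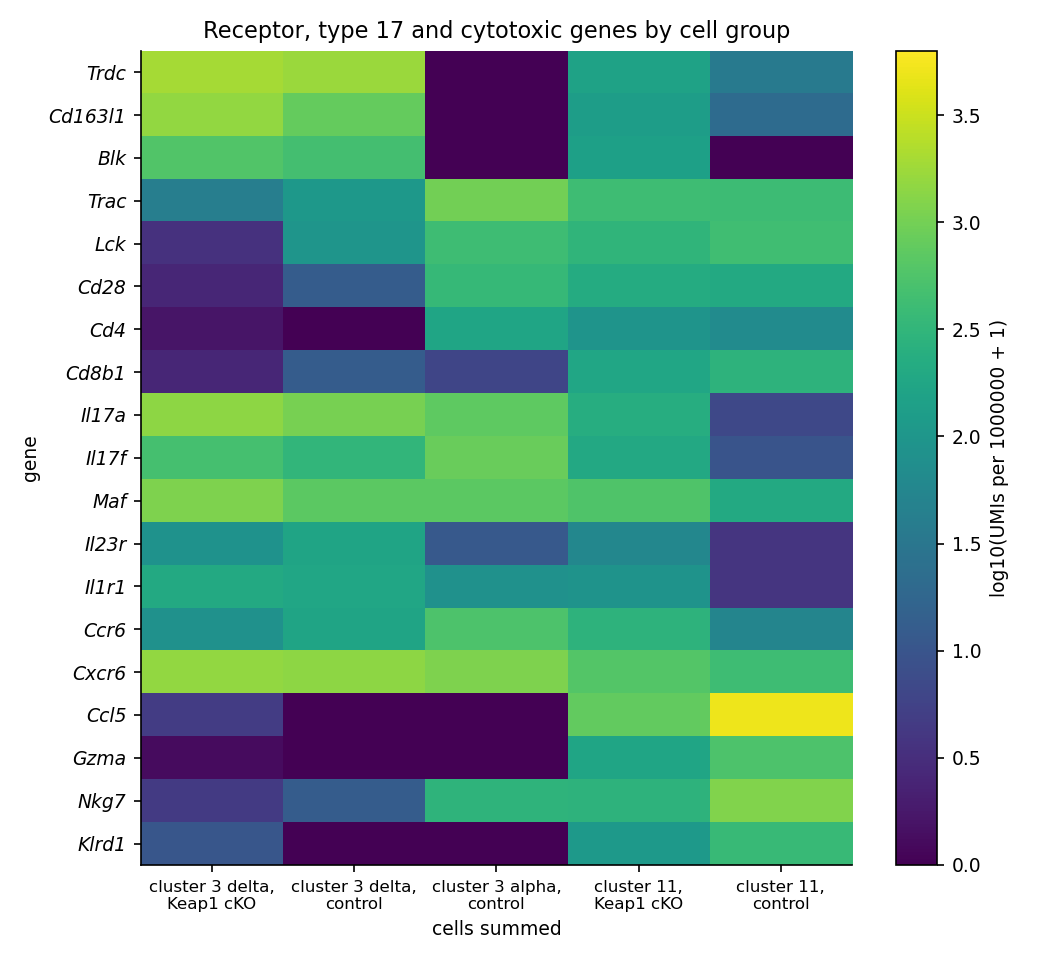
Colour gives log10 of UMIs per 1000000 plus 1 for 19 genes (rows) in 5 groups of summed cells (columns): delta-class cells of cluster 3 in the Keap1 cKO and control libraries, alpha-class control cells of cluster 3, and cluster 11 in each library. Il17a and Il17f are high in the 3 columns of cluster 3, Trdc and Blk are at 0 in the alpha-class column, and Ccl5 and Gzma are high in the cluster 11 columns.

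Against cluster 11 of the same library, cluster 3 was low in cytotoxic transcripts. Of 4767 genes compared in the Keap1 cKO library, 143 were at least 2-fold higher in cluster 3 (3%) and 152 at least 2-fold lower (3.19%), 6.19% in either direction. In the control library the counts of genes higher and lower in cluster 3 were 363 (7.93%) and 245 (5.35%) of 4576, 13.3% in either direction. The clusters were defined from these same cells, so the values describe them and test nothing. Ccl5, a chemokine of cytotoxic lymphocytes, had 3.73 CPM in Keap1 cKO cluster 3 and 779 CPM in Keap1 cKO cluster 11, with 0 UMIs in control cluster 3 and 4984 CPM in control cluster 11. Gzma, the protease granzyme A, had 0.311 CPM in cluster 3 and 168 CPM in cluster 11 of the Keap1 cKO library, and 0 UMIs in cluster 3 and 540 CPM in cluster 11 of the control library. Nkg7, a granule membrane protein, differed in size between the libraries, with 3.42 CPM in cluster 3 and 289 CPM in cluster 11 of the Keap1 cKO library, and 219 CPM in cluster 3 and 1218 CPM in cluster 11 of the control library. Of the cytotoxic and type 1 list, 4 of 7 measured genes were at least 2-fold lower in Keap1 cKO cluster 3 and 10 of 10 in control cluster 3, and 0 were higher by that margin.

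Il17f and Il1r1 separated the clusters more in the control library, where more of all genes were also 2-fold apart. Il17f had 478 CPM in cluster 3 and 193 CPM in cluster 11 of the Keap1 cKO library, and 690 CPM in cluster 3 and 8.62 CPM in cluster 11 of the control library. Il1r1, the interleukin 1 receptor, had 206 CPM in cluster 3 and 89.7 CPM in cluster 11 of the Keap1 cKO library, and 106 CPM in cluster 3 and 2.87 CPM in cluster 11 of the control library. Both stood higher in cluster 3, with log2 ratios of 1.20 to 1.31 in the Keap1 cKO library and 5.21 to 6.32 in the control library. Among the type 17 transcription factors, 6 of 16 measured genes were at least 2-fold higher and 3 lower in Keap1 cKO cluster 3, against 7 and 0 of 14 in control cluster 3. Of the listed genes that mark alpha-beta T cells, 6 of 8 were at least 2-fold lower in Keap1 cKO cluster 3, whereas in control cluster 3 the same list had 2 higher and 2 lower of 8. Over all genes compared, 3% were at least 2-fold higher and 3.19% lower in Keap1 cKO cluster 3. In control cluster 3 the shares were 7.93% higher and 5.35% lower. Lck had 2.49 CPM in cluster 3 and 302 CPM in cluster 11 of the Keap1 cKO library, and 303 CPM in cluster 3 and 437 CPM in cluster 11 of the control library. The effector cytokine Il22 had 30.5 CPM in cluster 3 and 43.1 CPM in cluster 11 of the Keap1 cKO library and 0 UMIs in both control clusters. Hbb-bs, a hemoglobin of red cells, had 618 CPM in Keap1 cKO cluster 11 and 29069 CPM in control cluster 11, and its part in the CPM of control cluster 11 was not tested.

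Between the libraries, 197 of 4690 genes with a mean of at least 30 CPM (4.2%) were at least 2-fold higher in Keap1 cKO than in control cluster 3, and 167 (3.56%) at least 2-fold lower, 7.76% in either direction. Cd28, Lck, Nkg7 and Tnfsf8, the CD30 ligand, led the lower side. Cd28 had 1.55 CPM in Keap1 cKO cells and 247 CPM in control cells, a log2 ratio of -7.31 (-8.97 to -6.03). Lck had 2.49 CPM in Keap1 cKO and 303 CPM in control cells, at -6.93 (-8.18 to -5.89). Nkg7 stood at -6.00 and Tnfsf8 at -4.53. Fyb, an adaptor of T cell receptor signalling, had 24.2 CPM in Keap1 cKO and 425 CPM in control cells, at -4.13, and the receptor genes Cd5 and Cd6 lay at -3.26 and -3.11. Ccr6 had 82.7 CPM in Keap1 cKO and 425 CPM in control cells, at -2.36 (-2.67 to -2.05). Of the 8 listed alpha-beta T cell genes, 4 of the 6 measured were at least 2-fold lower, with a median of -3.51, beside a median of 0.004 over all genes compared. The list also holds the beta constant genes Trbc1 and Trbc2, which were seen in most cells of both libraries. Trbc2 had a UMI in 95.5% of Keap1 cKO and 94.9% of control cells, and Trbc1 in 72.5% of Keap1 cKO and 86.4% of control cells. On the higher side stood Cd163l1 at 2.80 (2.46 to 3.17), Blk at 2.25 (1.80 to 2.75), and Cd247, the zeta chain of the receptor complex, at 1.71. 5 of the 6 marker genes were at least 2-fold higher, with a median of 2.05. The makeup of the cluster also differed, at 99.7% delta class in the Keap1 cKO library and 27.1% in the control library. The part of this makeup in the differences was not tested.

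Many of the named differences were smaller when both libraries were restricted to the delta class. The delta class summed 377 Keap1 cKO and 16 control cells, so only genes with a mean of at least 100 CPM were compared, and the median gene had 16 UMIs in the control cells. Of 1591 genes, 45 were at least 2-fold higher (2.83%) and 61 at least 2-fold lower (3.83%), 6.66% in either direction. The whole cluster at the same limit had 41 higher and 41 lower of 1567. Its control cells summed 320202 UMIs, against 85497 UMIs in the control delta class. At such unlike depths the counts of genes 2-fold apart cannot be set against each other. With median-of-ratios size factors in place of totals, 82 genes were higher and 43 lower, since that scaling moved the ratios up by 0.17 on the log2 scale. Of the 12 genes named for the largest positive ratios in the whole cluster, 5 were still at least 2-fold higher in the delta class, and their median ratio was 0.85 in the delta class, against 2.18 in the whole cluster. Cd163l1 had 0.90 (0.56 to 1.26) and Blk 0.35 (-0.11 to 0.84). Of the 12 named for the most negative ratios, 8 were still at least 2-fold lower, and Cd5 and Ifi27l2a had the other sign, at 0.44 and 0.38. All 8 Lck UMIs of the control delta class came from its 2 cells without Trdc. With those cells and 1 Keap1 cKO cell left out, 4 of the 12 were still at least 2-fold lower, and over all genes 52 were higher (3.25%) and 71 lower (4.44%) of 1599, 7.69% in either direction.

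**Figure D5:**
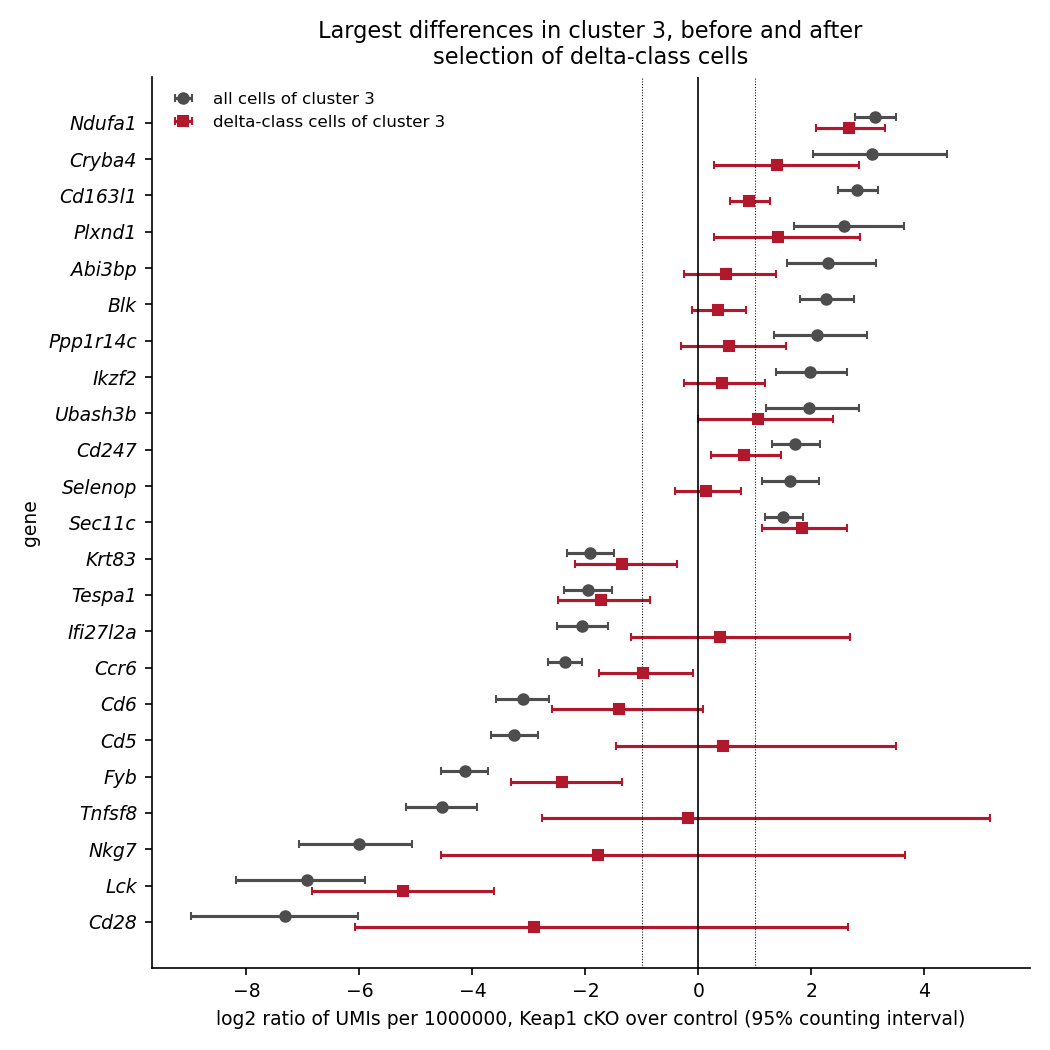
The x axis gives the log2 ratio of UMIs per 1000000, Keap1 cKO over control, for the 12 highest and 11 of the 12 lowest ranked genes of cluster 3 (y axis), in the whole cluster (grey circles) and in its delta class (red squares), with exact 95% counting intervals and dotted lines at 2-fold. Ndufa1, Sec11c and Tespa1 keep most of their difference in the delta class, while Cd163l1, Blk and Cd5 lie closer to 0.

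Several genes kept their difference in the delta class. Ndufa1, a subunit of respiratory complex I, had 1777 CPM in Keap1 cKO and 281 CPM in control delta-class cells, at 2.66 (2.09 to 3.31). Sec11c, a subunit of the signal peptidase, had 664 CPM in Keap1 cKO and 187 CPM in control cells, at 1.83 (1.12 to 2.64). Both also differed in the cells outside cluster 3, by 0.81 for Ndufa1 and 0.82 for Sec11c, Keap1 cKO over control. Icos, a costimulatory receptor of activated T cells, had 597 CPM in Keap1 cKO and 175 CPM in control cells, at 1.77 (1.04 to 2.61), or 1.74 in cells with Trdc. Il7r, the receptor for the survival cytokine interleukin 7, had 532 CPM in Keap1 cKO and 1357 CPM in control cells, at -1.35 (-1.62 to -1.07). The counting intervals of these 4 genes lay off 0, with and without the 2 control cells that had no Trdc. Such intervals leave out the spread between cells and between mice. Il7r, and Fos below, were chosen for the text after their values had been seen.

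Some immediate early genes, which respond quickly to signals and to tissue handling, were lower in the delta class of the Keap1 cKO library. Junb had 975 CPM in Keap1 cKO and 2281 CPM in control cells, at -1.23 (-1.44 to -1.01), and Fos had 503 CPM in Keap1 cKO and 994 CPM in control cells, at -0.98. Cd69, an early activation and residency receptor, had 358 CPM in Keap1 cKO and 866 CPM in control cells, at -1.27. 2 of the 10 measured list members were at least 2-fold lower and 0 higher (4 lower with Trdc required), with a median of -0.76, beside -0.05 over all genes compared in the delta class. Over all genes of the delta class, 2.83% were higher and 3.83% lower by that margin. With Trdc required, 3.25% were higher and 4.44% lower. The part of tissue handling in the immediate early values was not tested. Tissue residency and glycolysis genes lay nearer to the median of all genes. Of the tissue residency genes 1 of 8 was at least 2-fold higher and 1 lower, with a median of 0.09, and of the glycolysis genes 0 of 10 were higher and 2 lower, with a median of -0.31. The checkpoint and costimulation list, which includes Icos and Pdcd1, had 2 of 7 higher and 4 lower in the whole cluster, with a median of -1.39, and 1 of the 2 measured in the delta class higher, with a median of 0.92. Over all genes of the whole cluster, 4.2% were higher and 3.56% lower by that margin.

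The summed levels of Il17a, Il17f and most type 17 transcription factors were less than 2-fold apart. Il17a had 1417 CPM in Keap1 cKO and 1041 CPM in control delta-class cells, at 0.44 (0.14 to 0.76). Il17f had 478 CPM in Keap1 cKO and 316 CPM in control cells, at 0.60 (0.05 to 1.21), whereas in the whole cluster, with its alpha-class control cells, it stood at -0.53 (-0.73 to -0.32). Maf had 1157 CPM in Keap1 cKO and 690 CPM in control cells, at 0.75 (0.37 to 1.14), and Il1r1 205 CPM in Keap1 cKO and 175 CPM in control cells, at 0.23. Il23r had 84.6 CPM in Keap1 cKO and 164 CPM in control cells, at -0.95. Of the type 17 transcription factors, 0 of 14 were at least 2-fold higher and 1 lower, with a median of 0.37. Of the type 17 receptors, 0 of 11 were higher and 3 lower by that margin, where 3.83% of all genes were lower, with a median of -0.32, and of the 4 measured effectors 1 was higher. In 16 control cells these shares of 2-fold genes rest on few molecules. Per cell, the median delta-class cell had 7 Il17a UMIs in the Keap1 cKO library and 1 in the control library, at median depths of 8227 UMIs in the Keap1 cKO and 5353 UMIs in the control library. The medians thus lay further apart than the sums, of which the control sum rests on 3 cells.

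Keap1, the gene targeted in keratinocytes, was low in both libraries. Its summed level was 40.4 CPM (130 UMIs) in Keap1 cKO cluster 3 and 87.4 CPM (28 UMIs) in control cluster 3, a log2 ratio of -1.11 (-1.71 to -0.47). In the delta class it had 40.4 CPM in Keap1 cKO and 117 CPM in control cells, with 10 UMIs in the control cells. A 3′ tag can lie outside the deleted exons, so the ratio does not check for the deletion. Of the NRF2 target genes, which rise when KEAP1 is lost, 3 of 16 measured were at least 2-fold higher and 0 lower in the whole cluster, with a median of 0.21, where 4.2% of all genes were higher. In the delta class 2 of 9 were higher, with a median of 0.29, and 1 of 8 with Trdc required, where 2.83% and 3.25% of all genes were higher. Gstm1, a glutathione transferase, had 138 CPM in Keap1 cKO and 35.1 CPM in control cells in the delta class. Its control value stood at 3 counts over 85497 UMIs, as low as the floor used for a gene at 0. The cell cycle list had 0 of 8 measured genes 2-fold apart, and 150 Keap1 cKO and 15 control cells of cluster 3 had a UMI of Mki67 or Top2a.

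Transcripts of other cell types were present at low levels in cluster 3. The 8 myeloid markers summed to 346 CPM in Keap1 cKO cells, where 8 of 8 were seen, and to 109 CPM in control cells, where 4 of 8 were seen. Keratinocyte markers summed to 868 CPM in Keap1 cKO and 1252 CPM in control cells, and fibroblast markers to 617 CPM in Keap1 cKO and 497 CPM in control cells. Red cells of the same libraries gave 451 CPM in Keap1 cKO and 842 CPM in control cells for the keratinocyte list, so those transcripts were also seen where they should be lacking. Counted per cell, the list gave 7.39 UMIs in cluster 3 and 4.54 UMIs in red cells of the Keap1 cKO library. In the control library it gave 6.80 UMIs per cluster 3 cell and 9.06 UMIs per red cell. The natural killer list gave 18.95 CPM in Keap1 cKO and 6.25 CPM in control cells, with the defining genes Ncr1, Klre1 and Eomes at 0 in both libraries. S100a8, an alarmin of neutrophils and stressed epithelium, had 194 CPM in Keap1 cKO and 0 UMIs in control cluster 3. After thinning it was seen in 41.8% of Keap1 cKO cluster 3 cells (36.7% to 47.0%) and in 30 of 120 Keap1 cKO red cells (17.5% to 33.7%), against 0 of 57 cells of control cluster 3 and 0 of 178 control red cells. Free S100a8 RNA was thus present in the Keap1 cKO library, and its part in the cluster 3 value was not tested. The part of these other transcripts in the differences above was not tested.

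Most interleukin 17 transcripts of both libraries came from cluster 3. It held 74.5% of the 6119 Il17a UMIs of the Keap1 cKO library and 64.4% of the 388 of the control library. For Il17f the shares were 70.1% of 2196 UMIs in the Keap1 cKO library and 64.1% of 345 UMIs in the control library. The sources within the cluster differed. In the Keap1 cKO library the delta class held all 4558 Il17a and all 1539 Il17f UMIs of cluster 3. In the control library the delta class held 89 Il17a and 27 Il17f UMIs, the alpha class 139 Il17a and 167 Il17f UMIs, and the other class 22 Il17a and 27 Il17f UMIs. Single cells of cluster 3 had a median of 7 Il17a UMIs (0 to 203) in the Keap1 cKO library and 1 (0 to 53) in the control library. 167 of 378 Keap1 cKO cells had both cytokines, 180 only Il17a, 8 only Il17f and 23 neither. Of the 59 control cells, 30 had both, 4 only Il17a, 12 only Il17f and 13 neither.

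Alpha-class cells with interleukin 17 transcripts were present in the Keap1 cKO library too, but in cluster 11. Its 97 alpha-class cells held 75 Il17a and 99 Il17f UMIs, and 60 of them had a Ccr6 UMI, 231 UMIs in all. The 33 alpha-class control cells of cluster 11 held 2 Il17a and 3 Il17f UMIs and 15 Ccr6 UMIs in 4 cells. Cluster 11 also held 26 delta-class Keap1 cKO cells, with 869 CPM of Il17a and 702 CPM of Cd163l1, less Cd163l1 than the 1506 CPM of cluster 3. 5830411N06Rik, a scavenger receptor gene that RefSeq also lists as Scart2, had 405 CPM in those 26 cells and 9.64 CPM in the Keap1 cKO delta class of cluster 3, where 8 cells had a UMI. Of the 26, 6 had Scart2 without Cd163l1, 13 Cd163l1 without Scart2, 3 both and 4 neither. Tcrg-V6 had 70.2 CPM in those 26 cells and 168 CPM in the Keap1 cKO delta class of cluster 3. Delta-class cells of cluster 11 were thus higher in Scart2 and lower in Cd163l1 and Tcrg-V6 than those of cluster 3 in the same library.

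Across the 19 clusters, both libraries together, the genes whose level followed the mean of the 6 marker genes most closely were named by Pearson's r of log2(CPM + 1), as a description without a test. Pdcd1 (r = 0.981), Cd247 (0.974), Cxcr6 (0.972), Clnk, an adaptor of immune receptor signalling (0.969), and Cd3g, a chain of the receptor complex (0.960), led this order. The points share their libraries, and T cell clusters set the high end. Pdcd1 itself had 503 CPM in Keap1 cKO and 178 CPM in control cluster 3, and 504 CPM in Keap1 cKO and 480 CPM in control delta-class cells, a log2 ratio of 0.07. Il1b, which encodes a cytokine that acts on Il1r1, was highest in cluster 17, at 9008 CPM in 56 Keap1 cKO cells and 10866 CPM in 4 control cells.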

How the data were processed

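Droplet 3′ libraries of 1 Keap1 cKO and 1 control sample used 10x Genomics Chromium Next GEM reagents, per the labels. The submitters' processing notes name the mm10 build, Seurat 4.0.2 under R 4.1.1, and Cell Ranger 6.0.1. Values deposited by the authors are natural logs of 1 plus UMIs scaled to 10000 per cell, as read from the values themselves. UMI counts were recovered from each cell's smallest step, and 100% of positive values were whole within 0.01 UMIs. The table holds 18595 genes and 4853 cells with 500 to 100520 UMIs, 201 genes or more, and mitochondrial UMIs of 5.00% or less. The authors' deposited annotation gave the clusters and cell types, and no cell was removed. No doublet caller was run here, and an alternative left out cells above the 95th percentile of UMIs.

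UMIs were summed over cells and given per 1000000 (Python 3.11.15, numpy 2.4.6, pandas 2.3.3, scipy 1.17.1, matplotlib 3.10.9). Sums carry exact Poisson, ratios exact conditional binomial and shares exact Clopper-Pearson intervals at 95%. A gene at 0 in 1 group was set to 3 counts over the group and given as a bound, and no ratio was given when the other group was also under that floor. Genes 2-fold apart were counted as a description. The limit was a mean of 30 CPM, or 100 CPM in the delta class. Cells were thinned to 3000 UMIs for shares. The calculations were tested on simulated counts. Locations come from GENCODE vM21, which held 18323 of the 18595 names, and promoters from RefSeq (GRCm38.p6).

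Genes were named by a rule. It took the 12 highest and 12 lowest ratios between libraries among genes with a mean of 100 CPM and 4 times the UMIs per red cell. Against cluster 11 it took the 12 highest and 12 lowest mean ratios with the same direction in both libraries. There the rule set at least 100 CPM in either cluster of each library, and no red cell limit. It also took the 2 most abundant and 2 most different members of each list, the 8 genes most like the markers, and a fixed set of receptor and type 17 genes. The ranks held no mitochondrial, hemoglobin, ribosomal or receptor-segment gene. Of the sex-linked genes only Xist, Tsix, Ddx3y, Uty, Kdm5d and Eif2s3y were kept out. Other genes of the X chromosome could be ranked. The rule, the members and the lists were chosen with earlier results of these data known, and the receptor classes and the alternatives built on them after the data had been seen. Il7r, Fos, Lck in receptor classes, Hbb-bs, Scart2 and genes of the alpha-class cells outside the rule were likewise picked after their values were seen. Genes that met the rule but are absent from the text are not reported here.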

Additional observations from a re-analysis of the deposited data

Results flagged for a closer look

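Ccr6, the receptor for CCL20, stood in opposite directions in clusters 3 and 11. The log2 ratio of Keap1 cKO over control was -2.36 in cluster 3 (82.7 CPM in Keap1 cKO and 425 CPM in control) and 2.45 in cluster 11 (283 CPM in Keap1 cKO and 51.7 CPM in control). Cd40lg, the CD40 ligand of helper T cells, had -6.37 in cluster 3 (4 Keap1 cKO and 33 control UMIs) and 1.39 in cluster 11. Il17rb, a receptor for interleukin 25, had 0 UMIs in Keap1 cKO and 20 in control cluster 3, a ratio of -6.07 at the floor of 3 counts, and 2.24 in cluster 11. Hlf, a PAR bZIP transcription factor, had -1.37 in cluster 3 (153 CPM in Keap1 cKO and 397 CPM in control) and 3.19 in cluster 11 (131 CPM in Keap1 cKO and 14.4 CPM in control). These 4 genes were lower in the Keap1 cKO part of cluster 3 and higher in that of cluster 11.

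Fcer1g, a signalling chain of Fc and natural killer receptors, had 1.84 in cluster 3 (72 Keap1 cKO and 2 control UMIs) and -1.84 in cluster 11 (139 CPM in Keap1 cKO and 497 CPM in control). Ifitm1, an interferon-induced membrane protein, had 3.53 in cluster 3 (116 Keap1 cKO UMIs and 1 control UMI) and -2.05 in cluster 11 (202 CPM in Keap1 cKO and 836 CPM in control). With 1 library per genotype, the differences between the clusters were not tested for any of the 6 genes. The alpha class held 0% of Keap1 cKO and 59.3% of control cells in cluster 3, and 59.5% of Keap1 cKO and 56.9% of control cells in cluster 11. Within the delta class of cluster 3, Hlf stood at 0.01 (-0.77 to 0.93) and Ccr6 at -0.99 (-1.76 to -0.10). Il17rb had 0 Keap1 cKO and 6 control UMIs there, and 0 in both with Trdc required, while Cd40lg, Fcer1g and Ifitm1 had 0 control UMIs.

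Cells of the delta class were also annotated outside clusters 3, 11 and 16. They made up 5.84% of the Keap1 cKO library (139 cells, 4.93% to 6.86%) and 0.243% of the control library (6 cells, 0.0891% to 0.528%). The median such cell had 16207 UMIs in the Keap1 cKO library, against 8227 in the delta class of cluster 3. In red cells a delta UMI occurred in 13 of 120 Keap1 cKO cells (10.8%) and 1 of 178 control cells (0.562%), with 1 UMI at most. The part of free RNA and of droplets with more than 1 cell was not tested.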

How the results depend on the processing

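No paired analysis was possible because each genotype has 1 library. Of the alternatives run, only the restrictions by receptor class changed the sign of a ranked gene. In the delta class, all 12 positively ranked genes stayed positive, whereas Cd5 (0.44) and Ifi27l2a (0.38) changed sign; with a Trdc UMI required, Fyb (0.82), Cd5 (1.21), Cd6 (0.95), Ifi27l2a (0.14) and Selenop (-0.036) did. The following medians keep the limit of 30 CPM. The checkpoint median became 0.92 in the delta class, 1.88 with Trdc and -0.24 without the alpha class. In the same order, the marker median was 0.30, 0.064 and 0.74 and the alpha-beta median -0.86, -0.43 and -0.74. The immediate early median was -1.02 with Trdc. At the 100 CPM used for the delta class, the medians with Trdc were 0.81 for checkpoint, -0.23 for alpha-beta and -0.93 for immediate early genes. In the whole cluster the alpha-beta median was -2.56 with no filter and -1.96 above 100 CPM.

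Counts of genes at least 2-fold higher and lower in the whole cluster became 1031 and 1766 with no filter, 41 and 41 above 100 CPM, 357 and 463 in the delta class above 30 CPM, 371 and 504 with Trdc, and 311 and 298 without the alpha class. The delta-class count of higher genes was 82 with size factors. Against cluster 11, the Keap1 cKO counts were 902 and 1916 with no filter and 54 and 44 above 100 CPM. The control counts were 1511 and 1078, and 76 and 63, under the same settings, and 774 and 388 with delta-class cells of cluster 3.

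The Keap1 cKO share of cluster 3 was 19.2% among cells of at least 2000 UMIs. Cells of any cluster with at least 2 of the 6 markers made up 34.0% and 1.29% of the Keap1 cKO and control libraries, a ratio of 26.2. At full depth Trdc had a UMI in 9.17% of Keap1 cKO and 0.562% of control red cells. For Tcrg-C1 the shares of red cells were 10% in Keap1 cKO and 0% in control. The part of free RNA in the ratio of 26.2 was not tested. Delta-class cells of the T cell clusters made up 18.3% and 0.769% of the Keap1 cKO and control libraries, a ratio of 23.8. At full depth the Keap1 cKO shares of cells with a UMI were 99.2% (Cd163l1), 91.8% (Il17a), 94.2% (Trdv4), 99.7% (Trdc), 99.5% (Tcrg-C1), 95.5% (Blk) and 23.5% (Trac). Tcrg-V6 was seen with at least 2 UMIs in 38.4% and after thinning in 38.5% of Keap1 cKO cells, Trdv4 in 86.8% and 83.1%, and the delta class held 96.7% after thinning. All 24 ranked genes kept their direction and stayed within their intervals under 4 alternatives chosen first: size factors, per-cell means, cells with a Cd3 UMI, and without the deepest cells. The causes of these changes were not tested. The 16 control delta-class cells set the main limit.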
